A study of Homo sapiens with 39 samples.

Results

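Aminoacyl-tRNA synthetases are the enzymes that attach each amino acid to its tRNA. The members described here are the human genes for these enzymes, taken by symbol from the count table. All 35 genes listed were found, of 15808 genes counted. They comprise 19 genes for cytosolic enzymes, with symbols ending in 1 plus FARSA and FARSB (the alpha and beta subunits of phenylalanyl-tRNA synthetase), and 16 genes for mitochondrial enzymes, with symbols ending in 2. The rule itself uses no measured value.

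RNA was sequenced from 4 human lymphoma cell lines after 6 h of treatment, in 13 groups of 3 libraries, 39 in all. By general knowledge of these lines, OCILy10 and TMD8 belong to the activated B cell type of large B cell lymphoma, and DOHH2 and Toledo to the germinal centre type. Every line was treated with NEO2734, an inhibitor of the bromodomains of BET proteins and of the acetyltransferases CBP and p300, with OTX015 (birabresib), an inhibitor of BET bromodomains, or with the solvent DMSO. OCILy10 was also treated with CB103, which blocks the transcription complex that Notch forms. The labels give no doses and name no genetic change in any line. Nor do they state that replicates are separate cultures, so the p-values below measure the spread between libraries, which may be technical.

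A cytosolic set of synthetases charges tRNAs for ribosomes in the cytoplasm, and a mitochondrial set, also encoded in the nucleus, charges tRNAs for the mitochondrial ribosome. GARS1 and KARS1 each encode the enzyme of both compartments. The cytosolic glutamyl-prolyl, isoleucyl, leucyl, methionyl, glutaminyl, arginyl and lysyl enzymes sit with aspartyl-tRNA synthetase and 3 scaffold proteins in a multisynthetase complex. When amino acids run short, uncharged tRNA activates the kinase GCN2 and translation of the transcription factor ATF4 rises. ATF4 binds amino acid response elements next to many cytosolic synthetase genes.

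The stretches below show where that element's 9-letter core, TGATGNAAN, occurs near the start sites of members, with the core in capitals. They come from RefSeq promoter windows of GRCh38.p14, running from 250 bases before a gene's start to 50 after it. Windows were found for 30 of the 35 members, and 8 of those 30 held the core on either strand (26.7%), against 4.45% of the 27305 genes with a window. On the gene's sense strand, 6 of the 8 carry the reverse complement. Of the sites, 7 belong to cytosolic enzymes and the site of YARS2 to a mitochondrial one; 7 of the 8 are shown.
TARS1, chr5:33440954-33440986, plus strand: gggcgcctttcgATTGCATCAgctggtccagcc
GARS1, chr7:30594832-30594864, plus strand: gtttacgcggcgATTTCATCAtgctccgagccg
CARS1, chr11:3057406-3057438, minus strand: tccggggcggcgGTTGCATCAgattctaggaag
MARS1, chr12:57488051-57488083, plus strand: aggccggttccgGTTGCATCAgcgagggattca
AARS1, chr16:70289674-70289706, minus strand: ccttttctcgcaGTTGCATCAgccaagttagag
NARS1, chr18:57621802-57621834, minus strand: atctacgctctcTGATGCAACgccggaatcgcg
YARS2, chr12:32756074-32756106, minus strand: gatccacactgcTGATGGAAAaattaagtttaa
The sites of TARS1, CARS1, MARS1 and AARS1 share their last 8 capital letters, and NARS1 has the reverse complement of these. A match of letters is not a measured binding site.

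Levels are given as CPM, reads of a gene relative to the library's total after scaling by the trimmed mean of M values (TMM). Totals ran between 1000281 and 11668542 counts a library, 15 libraries holding 6670250 or more and 24 holding 3420458 or fewer. Deep and shallow libraries of 1 group differed for some members. In log2, shallow minus deep averaged 1.09 for CARS1, 0.79 for FARSA, 0.72 for SARS1, -1.26 for NARS2 and -0.45 for LARS1, against -0.01 for KARS1 and 0.03 for YARS2. In 3 libraries, Toledo DMSO replicate 2, OCILy10 CB103 replicate 2 and DOHH2 NEO2734 replicate 3, genes typical of another of the 4 lines were counted at 12% to 70.4% of that line's own level, against at most 2.30% in the other 36. For members, the main counts of calls, where there were any, are given with and without these libraries. Counts and changes of other gene lists, MYC and the cell type markers include them. B cell markers were all counted in each line (8 of 8, summed level 461.6 to 3817 CPM). T cell markers (2 of 6 counted) summed to at most 73.7 CPM, in OCILy10, and monocyte markers (3 of 6 counted) to at most 4.94 CPM. In DMSO libraries, 5 of 6 activated B cell markers were higher in the lines of the activated type and 0 lower, but so were 3 of 6 germinal centre markers, with 1 lower, so these markers do not separate the types as named.

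With NEO2734, synthetase genes of both compartments fell and none rose. Averaged over the 4 lines, 10 of the 35 members fell and 0 rose against DMSO (edgeR quasi-likelihood test over all 39 libraries, Benjamini-Hochberg adjusted p under 0.05 over 12814 genes). Among all genes tested 11.2% fell and 9.29% rose. The 10 were 7 of 19 cytosolic genes (36.84%), LARS1, VARS1, FARSB, KARS1, YARS1, AARS1 and MARS1, and 3 of 16 mitochondrial genes (18.75%), LARS2, YARS2 and EARS2. At an unadjusted p under 0.05 there were 16 of 35, against 30.7% of all genes, and the change lay below 0 for 29 of the 35, against 52.01% of all genes. The median log2 change was -0.26 for cytosolic and -0.22 for mitochondrial members, against -0.02 over all genes. DESeq2 called 13 members (12.85% of all genes lower) and limma-voom 11 (11.12%), all lower. In bulk RNA, fewer cells of a kind and less RNA per cell cannot be told apart.

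**Figure D1:**
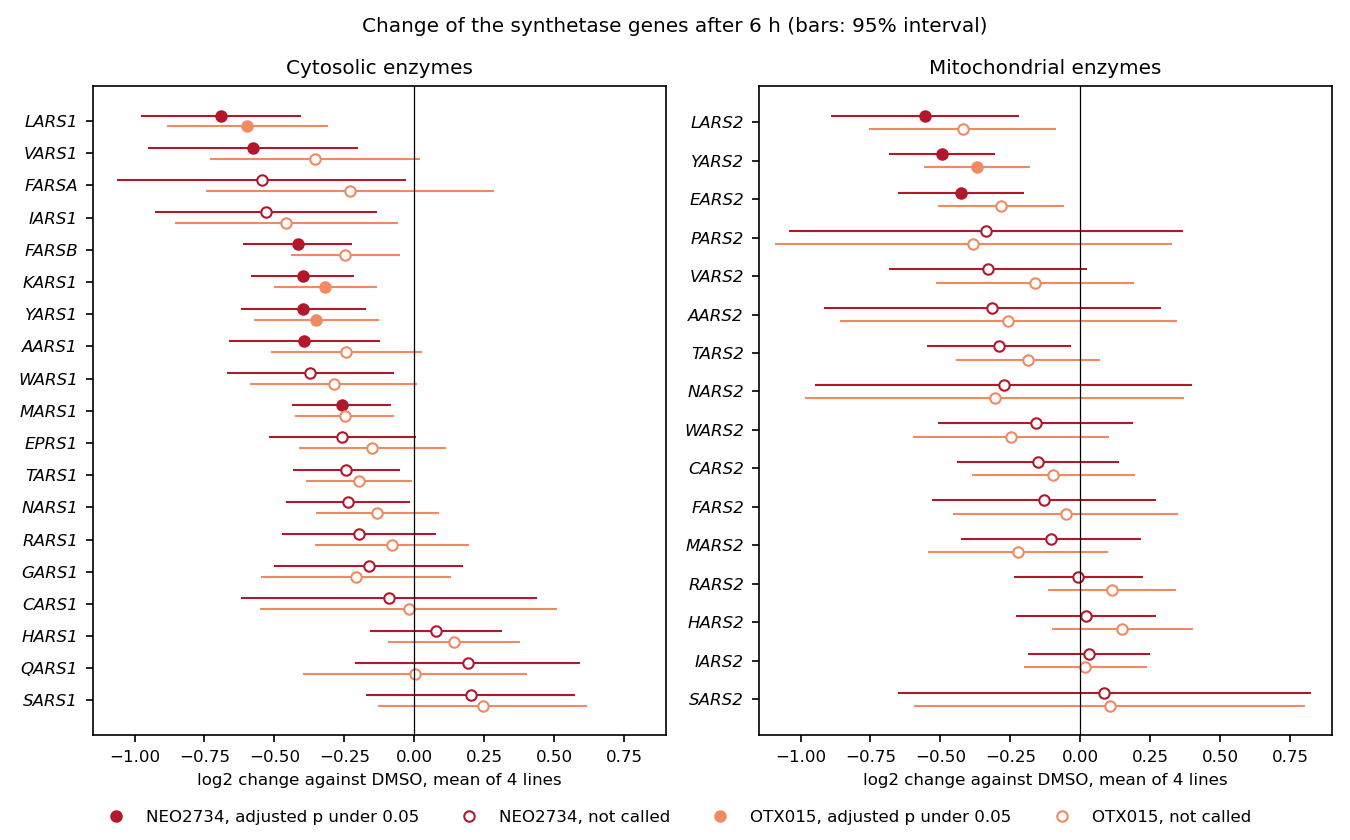
Log2 change of each member against DMSO, averaged over the 4 lines (x axis), for cytosolic genes at left and mitochondrial genes at right; dark red is NEO2734, orange is OTX015, bars are 95% intervals and filled points are called. Most points lie below 0 with both compounds, and the 10 filled NEO2734 points and 4 filled OTX015 points all do.

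LARS1 (ENSG00000133706.16, chr5:146113038-146182660, minus strand), the cytosolic leucyl enzyme, had the largest averaged fall. In DOHH2 it had 170, 146 and 114 CPM with NEO2734, against 310, 235 and 265 CPM with DMSO. In OCILy10 it had 149, 144 and 118 CPM with NEO2734, against 233, 220 and 193 CPM with DMSO. The NEO2734 libraries were all below the DMSO libraries in both lines. In TMD8 it had 189, 101 and 78 CPM with NEO2734, against 219, 170 and 174 CPM with DMSO, and in Toledo 202, 182 and 308 CPM, against 448, 235 and 362 CPM. There the groups overlapped, TMD8 NEO2734 replicate 1 (a deep library) and Toledo NEO2734 replicate 3 (also deep) being high. Of the Toledo DMSO libraries, replicate 2 alone (235 CPM), which holds OCILy10 genes, was not above every NEO2734 library. Without the 3 libraries that hold another line's genes, the Toledo change of LARS1 was -0.81 ± 0.29, not called. The averaged log2 change was -0.69 ± 0.14 (SE, adjusted p = 0.000583 by edgeR), a level 0.619 times that with DMSO. Beside LARS1 lies a counted antisense RNA, AC091887.1, which overlaps it by 7375 bases, and without strand the reads of both cannot be told apart.

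Of the other enzymes of the multisynthetase complex, KARS1 and MARS1 also fell. KARS1 (ENSG00000065427.13, chr16:75627474-75648643, minus strand), the lysyl enzyme of both compartments, had 215, 224 and 199 CPM in DOHH2 with NEO2734, against 267, 317 and 351 CPM with DMSO. In OCILy10 it had 209, 146 and 189 CPM with NEO2734, against 312, 205 and 298 CPM with DMSO. DOHH2 groups were apart, and in OCILy10 DMSO replicate 2, a deep library, was low and lay among the NEO2734 values. In TMD8 KARS1 had 332, 243 and 257 CPM, against 349, 314 and 375 CPM with DMSO, and in Toledo 220, 267 and 258 CPM, against 301, 216 and 309 CPM. Both lines showed overlap. Of the Toledo DMSO libraries, replicate 2 alone (216 CPM), which holds OCILy10 genes, was not above every NEO2734 library. Its averaged change was -0.40 ± 0.09 (adjusted p = 0.00174 by edgeR). MARS1, the methionyl enzyme, had the smallest called change, -0.26 ± 0.09 (adjusted p = 0.0319). It had 156, 157 and 151 CPM in DOHH2 with NEO2734, against 214, 205 and 178 CPM with DMSO, and these groups did not overlap. In OCILy10 it had 240, 240 and 187 CPM with NEO2734, against 278, 321 and 254 CPM with DMSO, also apart. In TMD8 it had 143, 111 and 122 CPM, against 153, 114 and 142 CPM, and in Toledo 294, 227 and 215 CPM, against 238, 301 and 302 CPM, with overlap in both. IARS1, the isoleucyl enzyme, had -0.53 (adjusted p = 0.0518), EPRS1, the enzyme for glutamate and proline, -0.26 (adjusted p = 0.173), RARS1 -0.20 and QARS1 0.19 on the log2 scale, none of them called. The complex's scaffold genes were not called either, with -0.40 for AIMP1, -0.69 for EEF1E1 and -0.33 for AIMP2.

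Among cytosolic enzymes outside the complex, FARSB (ENSG00000116120.9, chr2:222570536-222656337, minus strand) had 144, 152 and 107 CPM in DOHH2 with NEO2734, against 187, 216 and 285 CPM with DMSO. In OCILy10 it had 174, 151 and 134 CPM with NEO2734, against 237, 190 and 236 CPM with DMSO, and the groups were apart in both lines. In TMD8 FARSB had 191, 177 and 180 CPM, against 187, 201 and 190 CPM with DMSO. In Toledo it had 130, 155 and 196 CPM, against 205, 164 and 220 CPM, with overlap in both lines. Of the Toledo DMSO libraries, replicate 2 alone (164 CPM), which holds OCILy10 genes, was not above every NEO2734 library. The averaged change was -0.42 ± 0.10 (adjusted p = 0.00192 by edgeR). Its partner FARSA had -0.55 ± 0.25 (adjusted p = 0.138) and was not called; its interval, -1.06 to -0.03, includes the change of FARSB. YARS1 (ENSG00000134684.9, chr1:32775237-32818153, minus strand), the tyrosyl enzyme, averaged -0.40 ± 0.11 (adjusted p = 0.00882 by edgeR). It had 166, 137 and 116 CPM in DOHH2 with NEO2734, against 245, 236 and 246 CPM with DMSO, and 96.8, 73.9 and 70.4 CPM in TMD8, against 99, 76.5 and 81.7 CPM. The DOHH2 libraries were far apart and those of TMD8 overlapped. In OCILy10 YARS1 had 206, 143 and 110 CPM with NEO2734, against 266, 201 and 231 CPM with DMSO, and in Toledo 222, 276 and 191 CPM, against 231, 241 and 264 CPM, both with overlap.

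AARS1 (ENSG00000090861.14, chr16:70252295-70289543, minus strand), the alanyl enzyme, had NEO2734 and DMSO libraries apart in 3 lines. It had 207, 212 and 187 CPM in DOHH2 with NEO2734, against 276, 306 and 292 CPM with DMSO. In OCILy10 it had 90.3, 84.1 and 84.8 CPM, against 127, 145 and 164 CPM, and in TMD8 82.8, 59 and 76.5 CPM, against 113, 99.2 and 118 CPM. Every NEO2734 library of these lines was below every DMSO library of the same line. In Toledo it had 370, 457 and 186 CPM with NEO2734, against 204, 228 and 390 CPM with DMSO, groups that overlapped. The averaged change was -0.39 ± 0.13 (adjusted p = 0.0316 by edgeR). VARS1 (ENSG00000204394.11, chr6:31777518-31795953, minus strand), the valyl enzyme, had 80.5, 39.8 and 50.4 CPM in DOHH2 with NEO2734, against 122, 123 and 96.4 CPM with DMSO, and 63.1, 84.7 and 26.5 CPM in OCILy10, against 44, 92.9 and 58.2 CPM. It had 106, 132 and 76.5 CPM in TMD8 with NEO2734, against 178, 153 and 187 CPM, and 87.9, 65.8 and 62.8 CPM in Toledo, against 88.2, 102 and 104 CPM. The groups were apart in DOHH2, TMD8 and, narrowly, Toledo, and overlapped in OCILy10. VARS1 averaged -0.58 ± 0.18 (adjusted p = 0.024).

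**Figure D2:**
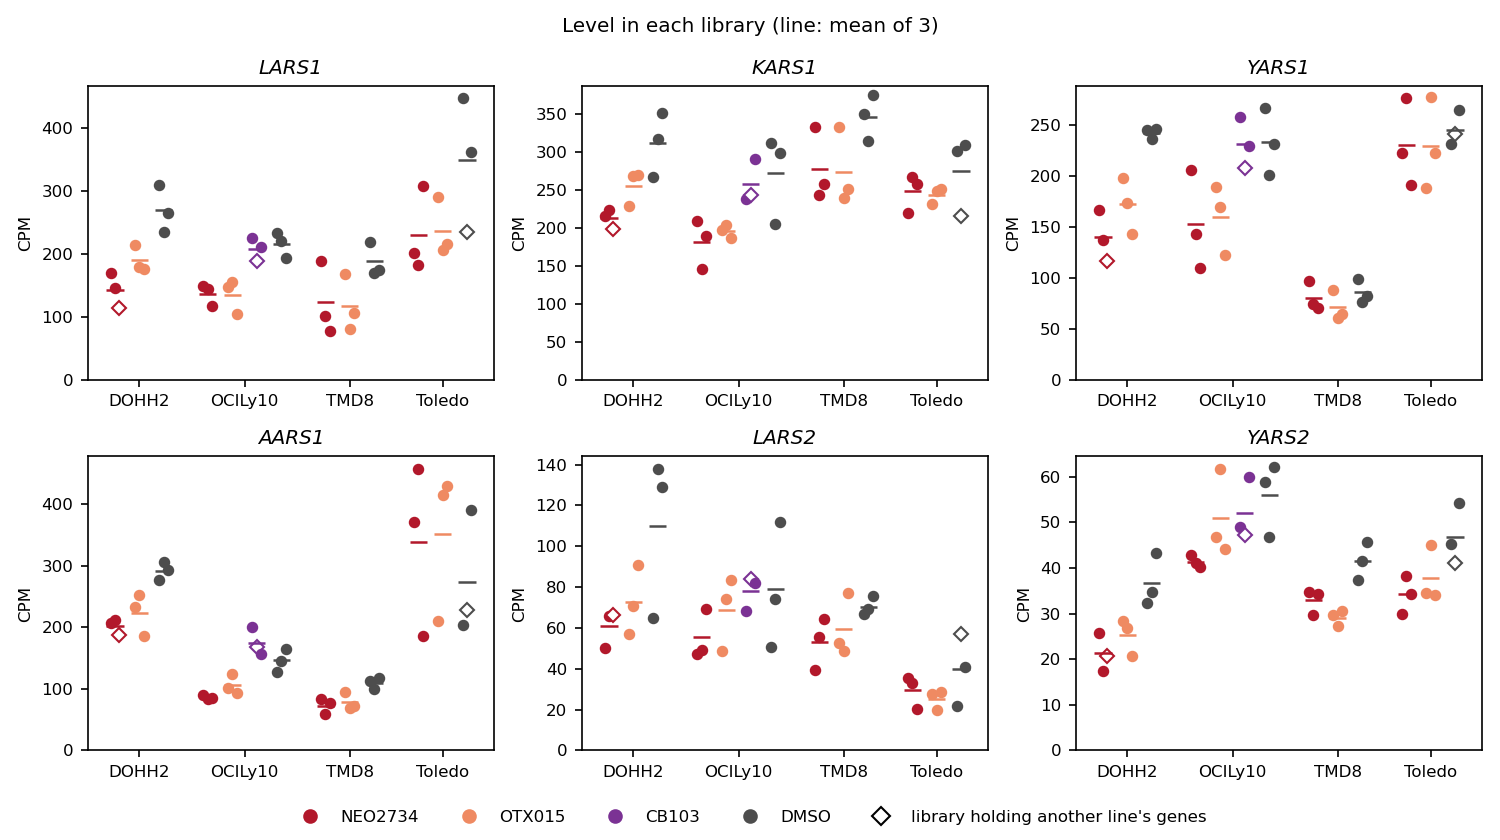
CPM in each library (y axis) of LARS1, KARS1, YARS1, AARS1, LARS2 and YARS2 by line; within a line NEO2734, OTX015, CB103 (OCILy10 alone) and DMSO stand left to right, lines mark means of 3 libraries and open diamonds the 3 libraries that hold another line's genes. YARS2 with NEO2734 lies below DMSO in all 4 lines, and AARS1 in all but Toledo.

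Of the mitochondrial enzymes, YARS2 (ENSG00000139131.11, chr12:32727490-32755902, minus strand), which charges the mitochondrial tyrosine tRNA, was the member whose NEO2734 and DMSO libraries were apart in all 4 lines. In DOHH2 it had 25.8, 17.4 and 20.7 CPM with NEO2734, against 32.4, 34.7 and 43.3 CPM with DMSO. In OCILy10 it had 42.9, 41 and 40.3 CPM, against 58.9, 46.9 and 62.2 CPM. These ranges are narrow, and each NEO2734 library lay under the lowest DMSO library. In TMD8 it had 34.8, 29.7 and 34.4 CPM with NEO2734, against 37.3, 41.6 and 45.7 CPM, and in Toledo 29.9, 38.3 and 34.3 CPM, against 45.3, 41 and 54.2 CPM. The share of all genes apart in all 4 lines is not given here, so this trait of YARS2 has no background beside it. The averaged change of YARS2 was -0.50 ± 0.09 (adjusted p = 0.000248 by edgeR), a level 0.709 times that with DMSO. Most of the YARS2 body, 18161 bases, is overlapped by DNM1L on the opposite strand, whose reads cannot be told apart from its own without strand. The window at its start, shown whole since the gene's libraries were apart in every line, holds the core in forward orientation 197 bases before the start.
YARS2 promoter, chr12:32755848-32756147, minus strand: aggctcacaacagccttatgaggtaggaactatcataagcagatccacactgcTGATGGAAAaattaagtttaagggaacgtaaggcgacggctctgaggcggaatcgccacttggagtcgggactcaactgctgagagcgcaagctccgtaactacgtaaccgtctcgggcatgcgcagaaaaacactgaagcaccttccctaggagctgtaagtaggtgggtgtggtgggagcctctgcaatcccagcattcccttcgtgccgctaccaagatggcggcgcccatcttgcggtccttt

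LARS2 (ENSG00000011376.8, chr3:45388506-45549421, plus strand), the mitochondrial leucyl enzyme, averaged -0.56 ± 0.16 (adjusted p = 0.0146 by edgeR). It had 50.2, 65.9 and 66.3 CPM in DOHH2 with NEO2734, against 64.6, 138 and 129 CPM with DMSO, and 39.6, 55.5 and 64.2 CPM in TMD8, against 66.6, 69.3 and 75.5 CPM. TMD8 was apart and DOHH2 overlapped through DMSO replicate 1, a deep library. In OCILy10 LARS2 had 47.3, 49.2 and 69.3 CPM with NEO2734, against 50.4, 74.3 and 112 CPM with DMSO, and in Toledo 35.5, 33.2 and 20.1 CPM, against 21.8, 56.8 and 40.9 CPM, both with overlap. Its CPM was higher in shallow libraries in 12 of 13 groups. EARS2 (ENSG00000103356.14, chr16:23522014-23557731, minus strand), the mitochondrial glutamyl enzyme, averaged -0.43 ± 0.11 (adjusted p = 0.00553 by edgeR). It had 50.4, 51.3 and 46.9 CPM in OCILy10 with NEO2734, against 74.2, 84.4 and 69.8 CPM with DMSO, and the groups were apart. In DOHH2 it had 44.6, 44.8 and 31.8 CPM with NEO2734, against 61.3, 42.1 and 49.8 CPM with DMSO. In TMD8 it had 49.7, 41.1 and 55.8 CPM, against 59.2, 65.4 and 45.7 CPM, and in Toledo 24.3, 43.9 and 35.3 CPM, against 43.6, 61.7 and 43 CPM. In these 3 lines the groups overlapped. The other 13 mitochondrial members were not called, with averaged changes between -0.34 (PARS2) and 0.09 (SARS2). SARS2, the mitochondrial seryl enzyme, was the member of lowest level.

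Leaving out 1 library at a time kept the calls of LARS1, KARS1, FARSB, YARS1, YARS2, LARS2 and EARS2 in all 39 fits. AARS1 lost its call without any of 8 libraries, namely DOHH2 DMSO replicate 2, OCILy10 DMSO 3, TMD8 DMSO 1 or 3, Toledo DMSO 3, DOHH2 NEO2734 3, TMD8 NEO2734 2 or Toledo NEO2734 3 (adjusted p up to 0.0868). MARS1 lost it in 13 of the fits, without DOHH2 DMSO 1 or 2, OCILy10 DMSO 2, TMD8 DMSO 1 or 3, Toledo DMSO 2 or 3, DOHH2 NEO2734 3, OCILy10 NEO2734 3, or replicate 2 or 3 of TMD8 or Toledo NEO2734 (up to 0.0728). VARS1 lost it without OCILy10 DMSO 2, DOHH2 NEO2734 2 or TMD8 NEO2734 3 (up to 0.0663). Without the 3 libraries that hold another line's genes, 6 members were called, against 8.12% of all genes called lower. They were FARSB, KARS1, LARS1, YARS1, EARS2 and YARS2. LARS2 (adjusted p = 0.0622 by edgeR), VARS1 (0.0562), AARS1 (0.0524) and MARS1 (0.0845) missed the threshold.

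With OTX015, LARS1, KARS1, YARS1 and YARS2 fell and no member rose. Averaged over the 4 lines, 4 of the 35 were called lower and 0 higher, against 6.06% of all genes lower and 5.53% higher. They were 3 of 19 cytosolic genes (15.79%) and 1 of 16 mitochondrial genes (6.25%), the mitochondrial share being close to that of all genes. At an unadjusted p under 0.05 there were 10 of 35, all of them lower, against 23.7% of all genes in either direction. DESeq2 called 6 (8.3% of all genes lower) and limma-voom 4 (5.43%), also all lower. The 4 were LARS1 (-0.60 ± 0.14, adjusted p = 0.00497 by edgeR), YARS1 (-0.35 ± 0.11, adjusted p = 0.0337), KARS1 (-0.32 ± 0.09, adjusted p = 0.0194) and the mitochondrial YARS2 (-0.37 ± 0.09, adjusted p = 0.00851). LARS1 had 214, 180 and 176 CPM in DOHH2 with OTX015 and 147, 155 and 104 CPM in OCILy10, both below the DMSO libraries given above. It had 168, 81.1 and 106 CPM in TMD8, also below DMSO, and 290, 206 and 216 CPM in Toledo, where the groups overlapped. YARS2 had 28.4, 26.8 and 20.8 CPM in DOHH2, 46.8, 61.8 and 44.2 CPM in OCILy10, 29.6, 27.3 and 30.5 CPM in TMD8 and 34.5, 45.1 and 34.1 CPM in Toledo with OTX015, apart from DMSO in DOHH2 and TMD8 and overlapping it in OCILy10 and Toledo. KARS1 with OTX015 had 229, 268 and 269 CPM in DOHH2 and 197, 204 and 186 CPM in OCILy10. It had 333, 239 and 251 CPM in TMD8 and 231, 248 and 251 CPM in Toledo. The line in which KARS1 was apart from DMSO was OCILy10, narrowly, as DMSO replicate 2 had 205 CPM there. For LARS1, KARS1 and YARS2 in Toledo, DMSO replicate 2 alone, which holds OCILy10 genes, was not above every OTX015 library. YARS1 with OTX015 had 198, 173 and 143 CPM in DOHH2, 189, 169 and 122 CPM in OCILy10, 88, 60.3 and 64.7 CPM in TMD8 and 188, 277 and 222 CPM in Toledo, apart from DMSO in DOHH2 and OCILy10. The median log2 change over the 35 was -0.22, against -0.03 over all genes. YARS1 lost its OTX015 call in 11 of the 39 fits with 1 library left out, without DOHH2 DMSO 1 or 3, TMD8 DMSO 1, Toledo DMSO 3, DOHH2 OTX015 2 or 3, OCILy10 OTX015 3, TMD8 OTX015 2 or 3, or Toledo OTX015 1 or 3 (adjusted p up to 0.0803). Without the 3 libraries that hold another line's genes, the OTX015 calls were again LARS1, KARS1, YARS1 and YARS2, against 4.76% of all genes called lower.

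NEO2734 and OTX015 were set against the same DMSO libraries, and their doses are not in the labels, so the comparison of the compounds is as dosed. NEO2734 minus OTX015, averaged over the lines, was called for 0 of the 35 members by edgeR, DESeq2 or limma-voom, and 0 passed at an unadjusted p under 0.05. Among all genes 0.0312% were called and 3.89% passed at an unadjusted p under 0.05. The differences ran between -0.32 and 0.19, with a median of -0.08. FARSB, the member of lowest p, differed by -0.17 ± 0.10 (95% interval -0.36 to 0.03, adjusted p = 1 by edgeR). For LARS1 the difference was -0.09 (95% interval -0.38 to 0.19) and for YARS2 -0.13 (-0.32 to 0.06).

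Within single lines, NEO2734 had called members in DOHH2 alone. FARSB (-0.77 ± 0.19, adjusted p = 0.022), YARS1 (-0.79 ± 0.22, adjusted p = 0.042) and YARS2 (-0.77 ± 0.19, adjusted p = 0.0198, all by edgeR) fell there, 3 of 35, against 2.9% of all genes called. The 3 calls depend on single libraries. FARSB was not called without DMSO replicate 2 (adjusted p = 0.0575), DMSO 3 (0.196) or NEO2734 3 (0.16), and YARS2 not without DMSO 2 (0.0552), DMSO 3 (0.146), NEO2734 2 (0.13) or NEO2734 3 (0.095). YARS1 was not called in 17 of the 39 fits, among them those without DMSO 1 (0.0935), DMSO 2 (0.106), DMSO 3 (0.136), NEO2734 2 (0.14) or NEO2734 3 (0.215). The other 12 of those fits each leave out a library of another group, and the cause was not tested. Without the 3 libraries that hold another line's genes, 0 were called, with log2 changes of -0.62 for FARSB, -0.66 for YARS1 and -0.73 for YARS2. In DOHH2, 32 of the 35 members lay below 0, against 47.09% of all genes. The NEO2734 and DMSO libraries of 13 members were apart, all lower, against 9.73% of all genes apart and lower, and 12 passed at an unadjusted p under 0.05, against 15.1% of all genes. Same-numbered libraries deviate together there, and they are also alike in depth, so pairing and shared depth cannot be told apart. With replicate number as a block 6 members were called, LARS1, IARS1 and KARS1 in addition, against 7.42% of all genes.

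In OCILy10 edgeR called 0 members with NEO2734 (1.01% of all genes). At an unadjusted p under 0.05 there were 8 (11% of all genes), and 8 were apart, all lower (10.2% of all genes). AARS1 had the lowest value there, -0.75 ± 0.26 on the log2 scale. With the block 3 were called, KARS1, LARS1 and YARS1, against 5.06% of all genes. In TMD8 0 were called (2.17% of all genes), 2 passed at an unadjusted p under 0.05 (12% of all genes) and 5 were apart, all lower (10.6% of all genes). With the block LARS1 was called, 1 member, against 5.86% of all genes. In Toledo 0 were called (5.47% of all genes), 3 passed at an unadjusted p under 0.05 (17% of all genes) and 2 were apart, both lower (6.57% of all genes). The members' shares in TMD8 and Toledo at an unadjusted p were thus below those of all genes. Over the 4 lines DESeq2 made 6 calls and limma-voom 2.

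With OTX015, edgeR called 0 members in DOHH2 (0.125% of all genes), OCILy10 (0.0702%), TMD8 (0.39%) and Toledo (3.09%), while DESeq2 made 1 call and limma-voom 0. At an unadjusted p under 0.05 there were 3 members in DOHH2 (7.73% of all genes), 5 in OCILy10 (7.57%), 2 in TMD8 (7%) and 0 in Toledo (13.7%). Libraries were apart, lower with OTX015, for 10 members in DOHH2 (6.52% of all genes), 6 in OCILy10 (6.97%), 3 in TMD8 (7.9%) and 1 in Toledo (4.82%). SARS2, in TMD8, was apart and higher, 1 member, against 4.96% of all genes. MARS1 had the lowest p in OCILy10, with 224, 180 and 151 CPM with OTX015, against 278, 321 and 254 CPM with DMSO, groups that were apart (log2 change -0.62 ± 0.17, adjusted p = 0.188 by edgeR).

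**Figure D3:**
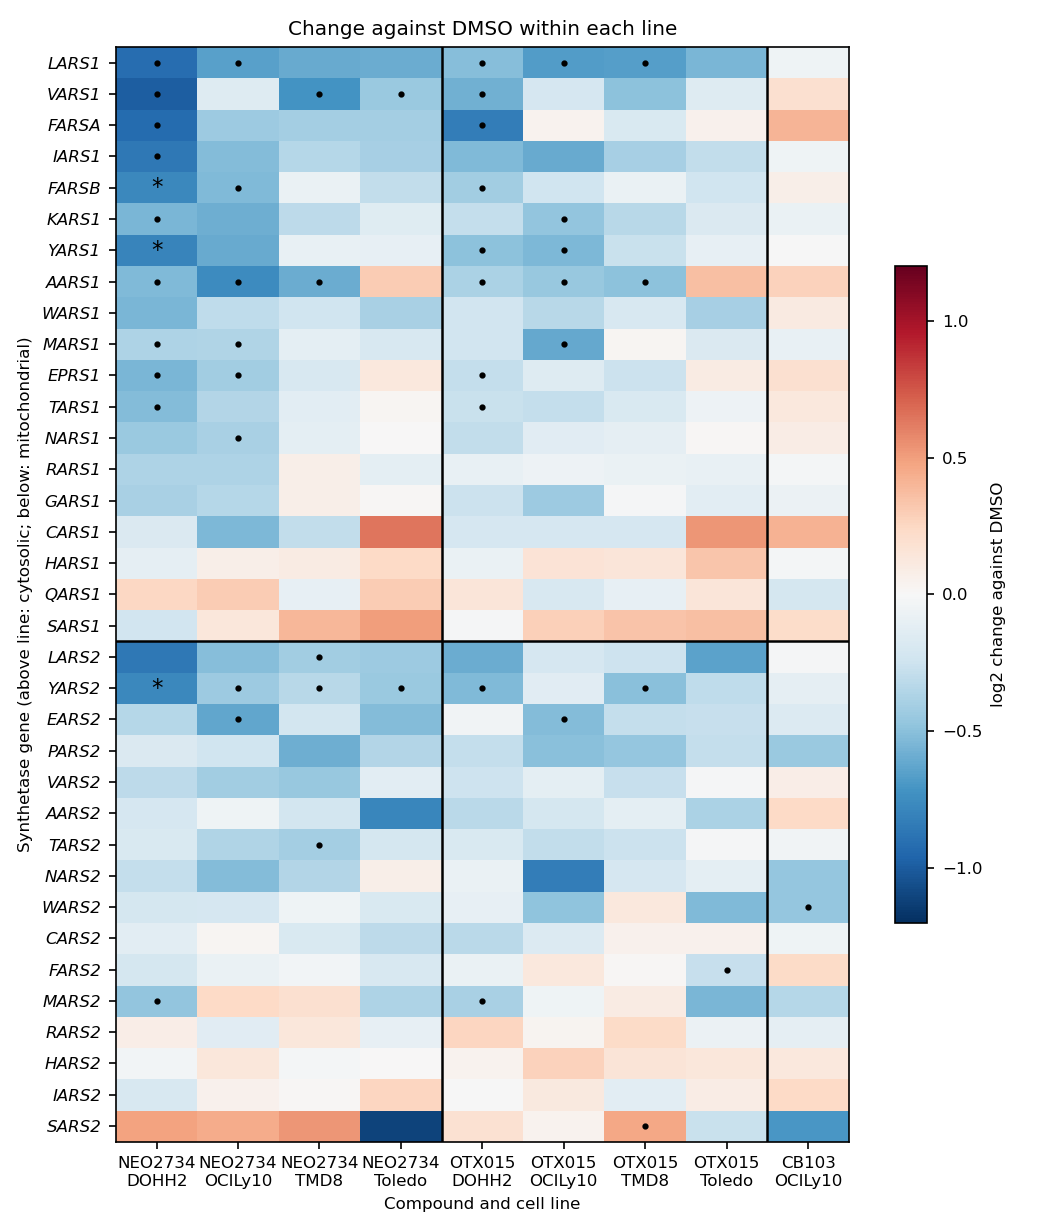
Heat map of log2 changes against DMSO, with members in rows and, in columns, NEO2734 in the 4 lines, OTX015 in the 4 lines and CB103 in OCILy10; stars mark calls and dots groups of 3 libraries that do not overlap. Blue marks values below 0 and red values above it, and the 3 stars lie in the DOHH2 column of NEO2734.

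With all libraries, Toledo was the line in which cytosolic members were most evenly split. There 10 of 19 lay below 0 with NEO2734, against 18 of 19 in DOHH2, 16 in OCILy10 and 15 in TMD8. Of all genes, 53.34% lay below 0 in Toledo, 47.09% in DOHH2, 52.28% in OCILy10 and 50.27% in TMD8. The cytosolic share in Toledo was thus near that of all genes. Of the 16 mitochondrial members, 13 lay below 0 in Toledo, 14 in DOHH2, 11 in OCILy10 and 12 in TMD8. CARS1, the cysteinyl enzyme, had 0.64 ± 0.52 there with NEO2734 and 0.53 with OTX015, SARS1, the seryl enzyme, had 0.50 ± 0.37 and 0.36, and AARS1 had 0.31 ± 0.26 and 0.36. None was called. CARS1 and SARS1 are members whose CPM was higher in shallow libraries in all 13 groups, AARS1 in 6. In Toledo, AARS1 had 204, 186 and 210 CPM in the deep libraries of DMSO, NEO2734 and OTX015. Shallow ones had 390 CPM with DMSO (228 in the mixed library), 370 and 457 with NEO2734 and 414 and 429 with OTX015. The part of depth in these changes was not tested. The deep library is replicate 3 in Toledo NEO2734 but replicate 1 in Toledo DMSO. Without the 3 libraries that hold another line's genes, Toledo DMSO replicate 2 among them, the NEO2734 changes were 0.67 ± 0.63 for CARS1, 0.42 ± 0.44 for SARS1 and 0.20 ± 0.30 for AARS1. EPRS1 (-0.12), NARS1 (-0.03) and TARS1 (-0.08) then also lay below 0 in Toledo, and they were the cytosolic members that changed sign. The SEs of these values were 0.26 for EPRS1, 0.26 for NARS1 and 0.21 for TARS1. The part of the mixed library in the split in Toledo was not tested. A test of the difference in change between the 4 lines called 0 members with NEO2734 (0.0156% of all genes) and 0 with OTX015 (0% of all genes), by edgeR, DESeq2 and limma-voom. With NEO2734 1 member, AARS1, passed at an unadjusted p under 0.05 (F = 3.27 with 3 numerator degrees of freedom, adjusted p = 0.716), against 6.11% of all genes, and with OTX015 0 did, against 3.73%.

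CB103 in OCILy10 changed no member by the test. EdgeR, DESeq2 and limma-voom each called 0 of 35, 0 passed at an unadjusted p under 0.05 (2.13% of all genes did), and 0% of all genes were called. Of the lowest p were WARS2, the mitochondrial tryptophanyl enzyme (-0.47 ± 0.34), IARS2, the mitochondrial isoleucyl enzyme (0.24 ± 0.21), and MARS2, the mitochondrial methionyl enzyme (-0.34 ± 0.31), all with an adjusted p of 1 by edgeR. WARS2 had 15.8, 9.51 and 13.8 CPM with CB103, against 21.1, 16 and 17.1 CPM with DMSO, and was the member whose libraries were apart, 1 of 35, against 1.31% of all genes apart and lower. Without those 3 libraries, CB103 replicate 2 among them, its change was -0.29 ± 0.38. LARS1, low with both bromodomain inhibitors in this line, had 225, 189 and 211 CPM with CB103, overlapping DMSO.

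Summed over the 19 cytosolic genes, DOHH2 had 3466 ± 317 CPM with NEO2734, 4016 ± 99.2 with OTX015 and 4921 ± 278 with DMSO (SD, n = 3 each). OCILy10 had 3445 ± 236 with NEO2734, 3628 ± 362 with OTX015, 4610 ± 301 with CB103 and 4409 ± 247 with DMSO. TMD8 had 3345 ± 309 with NEO2734, 3347 ± 298 with OTX015 and 3791 ± 59.1 with DMSO. With both compounds the cytosolic sums of DOHH2, OCILy10 and TMD8 lay below every DMSO library of the line. Toledo had 4585 ± 259 with NEO2734, 4574 ± 482 with OTX015 and 4677 ± 441 with DMSO, values closer than their SDs. The 16 mitochondrial genes together came to 570 ± 73.5 CPM with NEO2734 and 624 ± 60.8 with OTX015, against 707 ± 26.2 with DMSO, in DOHH2. In OCILy10 they came to 613 ± 46.2 with NEO2734 and 635 ± 46.5 with OTX015, against 702 ± 20.8 with DMSO. In OCILy10 with CB103 the sum was 685 ± 30.4. In TMD8 they came to 669 ± 46.6 with NEO2734 and 676 ± 63.6 with OTX015, against 746 ± 50.6 with DMSO, and in Toledo to 776 ± 36.1 with NEO2734 and 760 ± 6.5 with OTX015, against 793 ± 58.2 with DMSO. Without the libraries that hold another line's genes, DOHH2 with NEO2734 averaged 3645 CPM over the cytosolic genes and 607.7 over the mitochondrial genes (2 libraries), OCILy10 with CB103 4746 and 694.1, and Toledo with DMSO 4869 and 825.9. A sum is led by its most abundant members and was not tested.

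**Figure D4:**
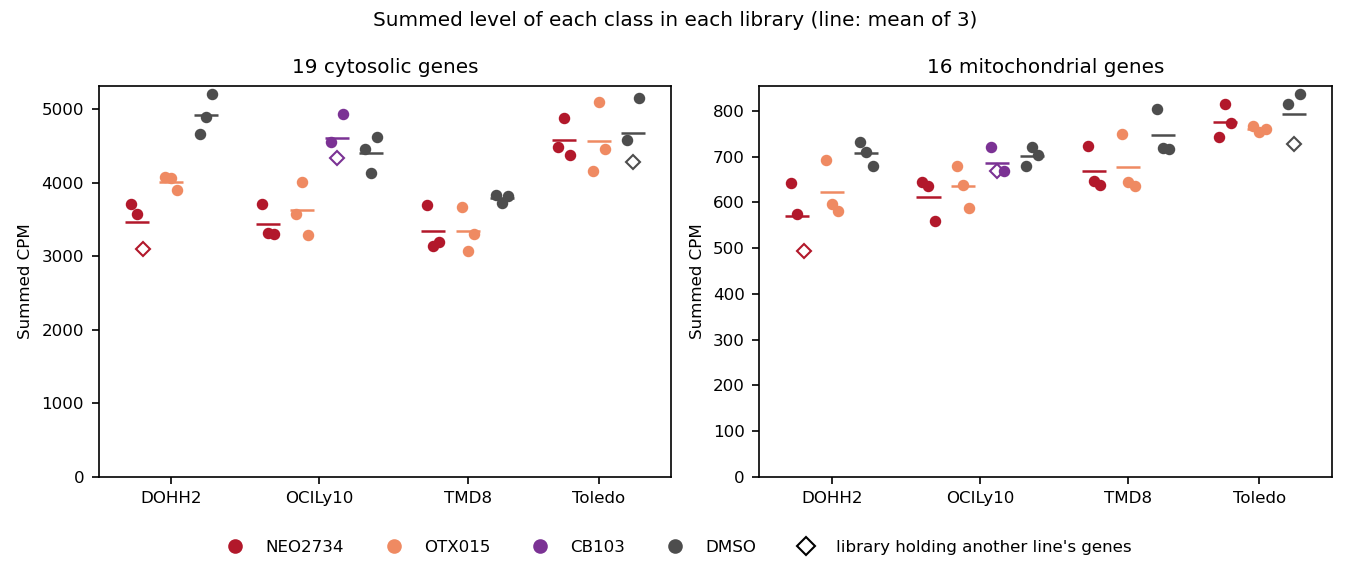
Summed CPM of the 19 cytosolic genes and of the 16 mitochondrial genes in each library (y axes), by line, with NEO2734, OTX015, CB103 and DMSO left to right, short lines for means and open diamonds for the 3 libraries that hold another line's genes. In DOHH2 the cytosolic sums with NEO2734 (mean 3466 CPM) lie well below those with DMSO (mean 4921), and in Toledo the groups mix.

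Levels with DMSO differed more between enzymes than between lines. Per kilobase of exon, the mean over the 4 lines ran between 16 CPM per kb (CARS1) and 82.1 (NARS1, the asparaginyl enzyme) for cytosolic members, with a median of 45.6, and between 0.953 (SARS2) and 48.6 (IARS2) for mitochondrial ones, with a median of 9.40. EPRS1 (78 CPM per kb) and KARS1 (74.1) stood next to NARS1. IARS2 ranked 10 among the 35, and YARS2, the next mitochondrial enzyme at 21.1 CPM per kb, ranked 18. DOHH2 was the highest line for 15 members (9 cytosolic, 6 mitochondrial) and TMD8 the lowest for 15. The highest line exceeded the lowest by 1.19 to 3.13 times for cytosolic members (median 1.86) and by 1.16 to 3.02 times for mitochondrial ones (median 1.98). Without Toledo DMSO replicate 2 these ratios ran up to 3.13 (median 2.09) for cytosolic and 4.08 (SARS2, median 2.12) for mitochondrial members, DOHH2 was highest for 14 and TMD8 lowest for 14.

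**Figure D5:**
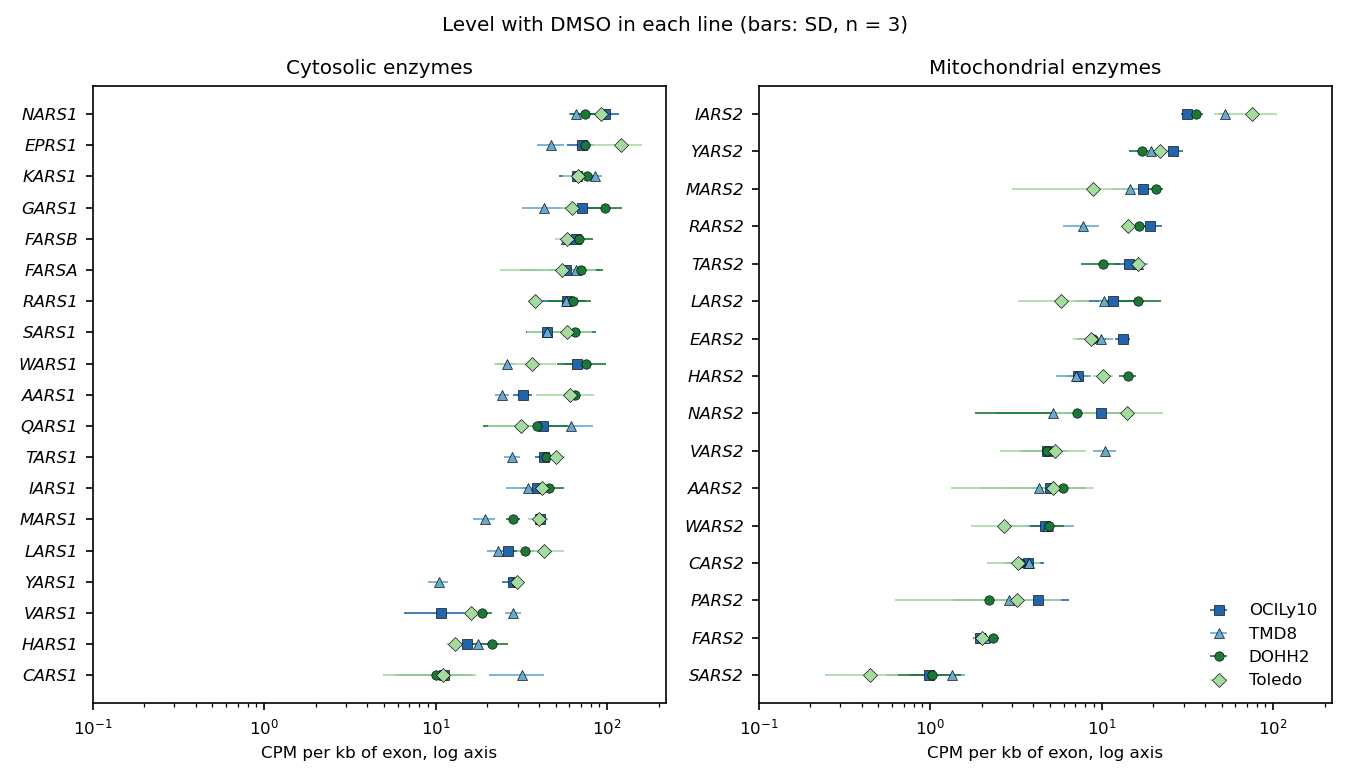
Level of each member with DMSO in OCILy10, TMD8, DOHH2 and Toledo as CPM per kilobase of exon (x axis, log scale), with bars of SD over 3 libraries. Mitochondrial members at right lie mostly below cytosolic members at left, IARS2 lying highest among them at 48.6 CPM per kb.

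The difference among the 4 DMSO groups was called for 17 of the 35 members, 10 cytosolic and 7 mitochondrial (48.57%), a share near that of all genes, 48.1%. YARS1 had the lowest p (adjusted p = 5.89e-06 by edgeR). It had 99, 76.5 and 81.7 CPM in TMD8, 266, 201 and 231 in OCILy10, 245, 236 and 246 in DOHH2 and 231, 241 and 264 in Toledo, so TMD8 lay apart from the other lines, which overlapped. MARS1 followed (adjusted p = 2.62e-05), with 153, 114 and 142 CPM in TMD8, 214, 205 and 178 in DOHH2, 278, 321 and 254 in OCILy10 and 238, 301 and 302 in Toledo. TMD8 was lowest, DOHH2 next, and the other two overlapped. MARS1 shares 982 bases with DDIT3 and 13370 with ARHGAP9, both counted on the opposite strand. IARS2 (adjusted p = 4.09e-05) had 133, 119 and 139 CPM in OCILy10, 238, 199 and 217 in TMD8, 164, 134 and 144 in DOHH2 and 384, 169 and 390 in Toledo. Toledo replicate 2, which holds OCILy10 genes, was its low value there. AARS1 (adjusted p = 9.15e-05) was lowest in TMD8. CARS1 had the widest ratio, with 204, 430 and 322 CPM in TMD8, against 59.7, 116 and 129 CPM in DOHH2. Without the 3 libraries that hold another line's genes, 18 members were called, the same 17 and EARS2. The share of all genes called in that fit is not given here. Of the 17 calls, CARS1, GARS1, LARS1, VARS1, LARS2, MARS2, VARS2 and YARS2 were lost without some single library. CARS1 was lost without TMD8 DMSO 2 (adjusted p = 0.117), VARS2 without TMD8 DMSO 2 (0.068), LARS2 without Toledo DMSO 1 (0.0586), MARS2 without Toledo DMSO 1 (0.12) or 3 (0.103), and VARS1 without OCILy10 DMSO 3 (0.0507) or TMD8 DMSO 3 (0.0514). GARS1 was lost without DOHH2 DMSO 1 (0.127), TMD8 DMSO 2 (0.12) or 3 (0.093), and LARS1 without any OCILy10 DMSO library, TMD8 DMSO 2 or 3, Toledo DMSO 1 or 3, or OCILy10 NEO2734 3 (up to 0.27). YARS2 was lost without DOHH2 DMSO 1 or 2, OCILy10 DMSO 1 or 3, or TMD8 DMSO 1 or 2 (up to 0.139).

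Set by type, the mean of OCILy10 and TMD8 minus the mean of DOHH2 and Toledo with DMSO was called for 6 members, all lower in the lines of the activated type, against 29% of all genes called. With 2 lines of each type, a difference of type and a difference of lines cannot be told apart. AARS1 (-1.16 ± 0.19, adjusted p = 2.24e-05 by edgeR) and YARS1 (-0.78 ± 0.15, 0.000243) had the lowest adjusted p. For YARS1 the call comes with a low level in TMD8, as given above. AARS1 had 146 ± 18.6 CPM in OCILy10 and 110 ± 9.91 in TMD8, against 291 ± 15 in DOHH2 and 274 ± 101 in Toledo (SD, n = 3 each), and every library of the first pair was below every library of the second. EPRS1 (-0.69 ± 0.18, adjusted p = 0.00409), LARS1 (-0.61, 0.0198) and TARS1, the threonyl enzyme (-0.45, 0.0104), were the other cytosolic ones. LARS1 was lost without DOHH2 DMSO 1 (0.0548) or Toledo DMSO 1 (0.112) and TARS1 without Toledo DMSO 1 (0.0713). In deep libraries alone TARS1 (0.205) and YARS1 (0.113) were not called, and in shallow libraries alone TARS1 (0.18), EPRS1 (0.202) and LARS1 (0.0727) were not. Without the 3 libraries that hold another line's genes, 9 members were called, and the share of all genes called in that fit is not given here. They were the same 6 and IARS2 (-0.45, adjusted p = 0.00244 by edgeR), which was also lower in the activated type. EARS2 (0.53, 0.00879) and MARS2 (0.60, 0.0203), which were higher, made up the rest. HARS2, the mitochondrial histidyl enzyme, was the 1 mitochondrial member called (-0.76 ± 0.17, adjusted p = 0.00126 by edgeR). It had 24.9, 25.3 and 31.6 CPM in OCILy10 and 19.5, 31 and 28.4 in TMD8, against 48.1, 60 and 52.4 in DOHH2 and 32.8, 39.1 and 43 in Toledo, and the 2 sets of libraries did not overlap.

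HARS1, the cytosolic histidyl gene, and HARS2 lie head to head on chromosome 5, overlap by 437 bases and share 184 bases of their promoter windows, which are shown since both genes start from them.
Shared HARS1 and HARS2 window, chr5:140691321-140691504, plus strand: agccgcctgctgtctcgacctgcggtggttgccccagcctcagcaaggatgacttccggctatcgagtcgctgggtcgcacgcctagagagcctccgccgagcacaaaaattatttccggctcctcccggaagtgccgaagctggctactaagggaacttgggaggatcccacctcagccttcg
With NEO2734 neither was called, with averaged changes of 0.08 ± 0.12 for HARS1 and 0.02 ± 0.12 for HARS2. HARS1 had 108, 195 and 161 CPM in DOHH2 with NEO2734, against 118, 191 and 191 CPM with DMSO. HARS2 had 50, 63.4 and 43.5 CPM there with NEO2734, against 48.1, 60 and 52.4 CPM with DMSO, and both pairs of groups overlapped. With OTX015 the changes were 0.14 and 0.15, not called. With DMSO, the activated-type difference was -0.01 for HARS1 (adjusted p = 0.981 by edgeR), not called; whether it differs from that of HARS2 was not tested.

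WARS1, the cytosolic tryptophanyl enzyme and an interferon-induced gene, had 238, 338 and 401 CPM in DOHH2 with NEO2734, against 302, 543 and 584 CPM with DMSO. Those groups overlapped, and the averaged change, -0.37 ± 0.15, was not called (adjusted p = 0.0704). Its mitochondrial partner WARS2 had -0.16 (adjusted p = 0.625). AARS2, the mitochondrial alanyl enzyme, had -0.31 (adjusted p = 0.552), with an interval, -0.92 to 0.29, that holds the change of AARS1. GARS1, the glycyl enzyme of both compartments, had -0.16 (adjusted p = 0.594), not called, beside KARS1, which was. The remaining cytosolic members, NARS1 (-0.24), TARS1 (-0.24), CARS1 (-0.09) and SARS1 (0.20), were not called.

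Genes that work beside the synthetases were read from lists in the same fits. Of 30 tested genes of tRNA maturation and modification, 9 fell with NEO2734 and 0 rose, with a median log2 change of -0.40, and 5 fell with OTX015 (median -0.28). As given above, 11.2% of all genes fell and 9.29% rose with NEO2734, and 6.06% fell and 5.53% rose with OTX015, which is the background of this and the following lists. XPOT, the export receptor of tRNAs, had -0.82 with NEO2734 (adjusted p = 1.97e-05 by edgeR). PUS7, a pseudouridine synthase, had -0.82 (6.09e-05) and QTRT2, a subunit of the queuine transferase, -0.52 (0.000289). Of 20 genes of RNA polymerase III and its factors, which transcribe the tRNA genes, 1 rose (GTF3C1, 0.40) and 3 fell (POLR3G, -0.90; POLR3E, -0.37; GTF3C6, -1.32) with NEO2734, and 1 rose and 1 fell with OTX015. Of 4 mitochondrial charging partners, which finish or formylate mitochondrial aminoacyl-tRNAs, MTFMT rose (0.32, adjusted p = 0.0498) and QRSL1 fell (-0.87, 0.0225) with NEO2734, and GATB fell with OTX015 (-0.60, 0.0349). Of 5 cytosolic elongation genes tested, EIF5A, which aids elongation, fell with both compounds (-0.75 with NEO2734 and -0.53 with OTX015) and EEF1D rose with NEO2734 (0.55). Of 5 mitochondrial elongation genes, TSFM (-0.44) and GUF1 (-0.53) fell with NEO2734 and 0 passed with OTX015.

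Genes of the amino acid response did not move one way. Of 27 tested of 30 listed, 2 rose with NEO2734, SESN2 (1.28, adjusted p = 0.000275), a stress-induced regulator of mTORC1, and SLC38A2 (0.35, 0.0119), an amino acid transporter, and 3 fell, XPOT, SLC7A1 (-0.77) and ALDH18A1 (-0.48). The list's median was -0.08. With OTX015, SESN2 (1.00) and SLC38A2 (0.31) rose and XPOT fell (-0.55), and the median was -0.13. ASNS, asparagine synthetase, had 0.51 with NEO2734, not called. The 8 members with the core in their window were all below 0 with NEO2734 (3 called, median -0.25), against 16 of the 22 without it (4 called, median -0.18). Neither count holds AARS2, LARS1, VARS1, VARS2 and YARS1, for which no window was used, and LARS1, VARS1 and YARS1 are among the 10 that fell. In Toledo 5 of the 8 lay above 0 with NEO2734, against 7 of the 22. Without the 3 libraries that hold another line's genes, NARS1 (-0.03) and TARS1 (-0.08) of these 5 lay below 0. AARS1, CARS1 and GARS1 stayed above. Among the 22, EPRS1, IARS2 and NARS2 then lay below 0 instead of above it, and MARS2 and PARS2 above instead of below. The E-box CACGTG, to which MYC and related factors bind, stood in 4 of the 30 windows (13.3%; CARS2, EARS2, IARS1 and MARS2), against 8.77% of all genes. The interferon response core GAAANNGAA stood in 4 (13.3%; EARS2, GARS1, IARS1 and WARS1), against 9.86% of all genes. Motifs were searched on both strands and may overlap.

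MYC, whose product activates genes of translation, fell with NEO2734 (-1.38 ± 0.22, adjusted p = 4.39e-05 by edgeR) and with OTX015 (-0.77 ± 0.22, 0.0196) on average. By line its log2 change with NEO2734 was -1.63 in DOHH2 (adjusted p = 0.042), -0.53 in OCILy10 (0.817), -3.31 in TMD8 (0.000201) and -0.06 in Toledo (0.996). The members' median changes were -0.37 in DOHH2, -0.36 in OCILy10, -0.19 in TMD8 and -0.18 in Toledo. Whether the members' changes go with that of MYC was not tested. Of 8 interferon genes, read beside WARS1, 4 fell with NEO2734, among them GBP1 (-3.67) and IRF1 (-0.46), and 3 fell with OTX015. Cell type markers moved with the compounds too. Of the 8 B cell markers, 6 fell with NEO2734 and 5 with OTX015, and of 6 activated B cell markers 4 fell with NEO2734 and 3 with OTX015, among them IL16 (-2.04 with NEO2734), CCND2 (-2.47) and IRF4 (-0.73). Of 6 germinal centre markers, MYBL1 rose (1.29 with NEO2734 and 1.10 with OTX015) and S1PR2 fell (-1.27 and -1.31). Of the 2 T cell markers tested, TRAC fell (-2.61, adjusted p = 0.00721 by edgeR, with NEO2734 and -4.30, 0.00151, with OTX015) and CD2 was not called. In Toledo the median log2 change of the 2 was -6.24 with NEO2734 and -7.49 with OTX015. T cell markers summed to a median of 0 CPM in Toledo (at most 39.8) and of 15.9 CPM in OCILy10. Toledo DMSO replicate 2, which holds OCILy10 genes, is in these contrasts, and the change of TRAC without it is not given. No monocyte marker passed the filter on low counts. The part of these markers in the members' changes was not tested.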

How the data were processed

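The deposited table holds raw read counts per gene. Per the submitters' processing notes, STAR, edgeR and hg38 were used; per the labels' protocols, libraries were made from total RNA with a TruSeq kit. How reads were counted, with which annotation and whether by strand, is not given in the sources used here. Agents named in the treatment protocol differ from those of the samples, whose own labels were used. Of the columns, 38 equal those of the other deposited table of counts and 1 differs, OCILy10 CB103 replicate 1.

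Symbols came from a separate reference of gene names, by identifier without version, and matched 15590 of 15808 identifiers. Gene coordinates, exon lengths and overlaps came from GENCODE 29, in which some members carry older symbols. Genes were filtered with filterByExpr by group, scaled by TMM and fitted with edgeR 4.0.16 (R 4.3.3), with 13 group coefficients and 26 residual degrees of freedom. Averaged changes are plain means of the 4 within-line differences. A gene was called at an adjusted p under 0.05 (Benjamini-Hochberg over the 12814 genes tested). All 35 members passed the filter. The figure after ± is the SE for a log2 change and the SD for a level. "Apart" means that the 3 and 3 libraries do not overlap. Coordinates are those of GRCh38. The procedure was tested on simulated data. Totals of 1000281 to 11668542 counts set the precision.

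Members and gene lists were chosen with earlier results of these data known. Named in full were up to 8 called members per averaged contrast (at least 5 CPM, on average, in some group), the 4 of lowest p for differences among lines, the 3 for CB103, up to 3 called per line, and GARS1, KARS1, EPRS1 and the pairs of WARS, HARS and AARS; other members are given by value. MARS1 and AARS1 with NEO2734 lie outside the first 8. Values of a few genes and 1 sequence stretch are not reported here.

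Replicate numbers are in the labels. Deviations of same-numbered libraries correlated above 0.1 for each number in DOHH2, TMD8 and OCILy10 with NEO2734 (0.25 to 0.9 against DMSO). Those libraries are also alike in depth, deep or shallow, so pairing by number and shared depth cannot be told apart. Not every number reached this in Toledo (-0.628 at the lowest), or in OCILy10 with OTX015 (-0.594 for number 2) or CB103 (0.0503 for number 2). Each low value quoted here is between a deep and a shallow library. Number 2 in Toledo was also low against DMSO, -0.102 with NEO2734 and -0.225 with OTX015, between shallow libraries. The DMSO library of that number holds OCILy10 genes. Alternatives were DESeq2 1.42.0, limma-voom (limma 3.58.1), upper-quartile scaling, no filter, the replicate block, deep or shallow libraries alone, the other table, leaving out libraries and, added after seeing the data, depth class within line as a term. Block and depth columns were centred within each line after the results were seen. Coded first from replicate 1 of each line, the block lost the calls of LARS1, TARS1, LARS2, VARS2 and YARS2 among lines and of TARS1 for the activated type, and changes within lines were the same.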

Additional observations from a re-analysis of the deposited data

How the results depend on the processing

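In the averages over lines, every member called under any alternative run was lower, and no called value reversed. With NEO2734, averaged, 10 members were called. The count was 6 without the 3 libraries that hold another line's genes, 1 (LARS1) in deep libraries alone and 16 with depth class within line as a term, and 8 to 12 with single libraries left out. The share of all genes called lower with NEO2734 moved too. It was 11.2% with all libraries, 8.12% without those 3 libraries and 17.95% with the depth term. With OTX015, averaged, 4 members were called, against 6.06% of all genes called lower. That share was 10.2% with the replicate block and 12.5% with the depth term, beside the member counts that follow. The count was 9 with the replicate block, 0 in deep libraries alone, 11 with the depth term and 3 to 6 with single libraries left out. Within single lines, the 3 NEO2734 calls became 6 with DESeq2, 10 with the replicate block, 20 with the depth term, 1 in shallow libraries alone, and 0 in deep libraries alone, without the 3 libraries or in the other table, with 0 to 4 when single libraries were left out. OTX015 within lines had 0 calls, and 1 with DESeq2, 1 with the replicate block, 1 in shallow libraries and 3 with the depth term. The block call was MARS1 in OCILy10, where not all same-numbered libraries deviate together. With the block and NEO2734, 7.42% of all genes were called in DOHH2, 5.06% in OCILy10, 5.86% in TMD8 and 6.04% in Toledo. For OTX015 in OCILy10 it was 1.79%. Shares of all genes under the other settings within lines, or in deep libraries alone, are not given here. Those member counts therefore have no background beside them. The activated-type difference had 6 calls, 11 with the block, 17 with the depth term and 4 to 9 with single libraries left out; that among lines had 17, 25 with the block, 27 with the depth term and 12 to 18. Lines are compared between libraries, and block and depth term take differences between a line's libraries out of the spread. These higher counts therefore do not bear on the calls, and the shares of all genes in those fits are not given here. Other counts (CB103, NEO2734 minus OTX015, and the differences between lines) were 0 under each alternative. Among values of single members, 3426 kept their side of the threshold, 56 gained and 95 lost a call. Deep libraries alone leave 1 library in most groups, so few degrees of freedom remain. The block moved no count not given here by over 1.5 times. Low counts limit SARS2, which was at 0 in 2 libraries, and antisense or overlapping genes limit 17 members.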
